A study of Mus musculus with 6 samples.

Results

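Genes that fold proteins in the endoplasmic reticulum (ER) or serve the unfolded protein response were compared between stomachs of mice given Riclin and of mice given saline. The 35 genes were taken by symbol from a fixed list of sensors, transcription factors, chaperones, disulfide isomerases and degradation factors. All 35 were among the 23550 symbols of the FPKM table (fragments scaled by gene length and by library total), and all 35 passed the filter on low values. Riclin, a soluble dietary fibre made by a bacterium, was given by gavage at 20 mg per kg for 14 days to the mice of 3 libraries, numbered 2, 3 and 4. Normal saline was given by the same route to those of the other 3, numbered 1, 2 and 4, and their label carries the same figure of 20 mg per kg. The study addressed the mucosal defence of the stomach. The sources used here give neither the strain, sex and age of the mice nor whether these mice also received the ethanol of the study's injury experiment. Nor do they say that each library is 1 animal, and the p-values therefore describe the spread among these libraries alone, which may be technical.

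The ER is where secreted and membrane proteins are threaded in, folded, glycosylated and joined by disulfide bonds. The stomach lining makes pepsinogens, mucins and trefoil peptides in quantity, and its chief, neck and surface mucous cells carry much ER. When unfolded protein builds up, the ER membrane sensors IRE1, PERK and ATF6 raise chaperones, slow protein synthesis and send misfolded chains to the proteasome. XBP1 and ATF6 act on chaperone genes through short promoter sequences, the best known being the ER stress element, a CCAAT box and a CCACG box set 9 bases apart.

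That element was found in the promoters of many of these genes, and 3 promoters are shown because they belong to Hspa5, which makes the central ER chaperone BiP, and to Herpud1 and Syvn1, the pair with the smallest p-values below. Each is given as the 120 bases before the transcription start, from the RefSeq promoters of GRCm38.p6. Capitals mark the paired CCAAT and CCACG boxes in Hspa5 and Syvn1, and in Herpud1 the second ER stress element, ATTGG and CCACG set 1 base apart.
Hspa5, chr2:34771970-34772089, plus strand: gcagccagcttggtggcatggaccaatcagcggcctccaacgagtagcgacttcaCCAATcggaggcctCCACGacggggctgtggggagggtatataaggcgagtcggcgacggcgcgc
Herpud1, chr8:94386309-94386428, plus strand: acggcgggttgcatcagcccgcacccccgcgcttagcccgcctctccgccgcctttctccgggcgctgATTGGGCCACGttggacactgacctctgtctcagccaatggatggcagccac
Syvn1, chr19:6046456-6046575, plus strand: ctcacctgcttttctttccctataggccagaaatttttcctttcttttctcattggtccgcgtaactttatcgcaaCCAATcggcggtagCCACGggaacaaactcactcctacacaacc

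Both strands of windows running 250 bases before to 50 after the start were searched, and 30 of the 35 genes had a window. Atf6, Derl1, Ern2, Hyou1 and Manf had none. The ER stress element was present in 10 of the 30 genes (33.3%), a gene counting if any of its windows held it. It was in 0.119% of all 32851 promoter windows, counted singly, and in 0.181% of 9388 genes tested below. The last share is 17 genes, and the same 10 are among them. The element is known from chaperone genes, so its high share in this group is no independent finding. The second element was present in 2 of the 30, Herpud1 and Dnajb11, against 0.0365% of all windows and 0.0852% of the tested genes. In Dnajb11 it lies after the start. The XBP1 sequence TGACGTGG was found in 0 of the 30 windows and in 0.676% of all. The 2 elements hold the CCACG box, which alone is in 25 of the 30 windows, in 32.8% of all and in 51.5% of those of tested genes. The other sites of the first element are shown to let their boxes and the 9 bases between them be compared, each read from CCAAT to CCACG, with the boxes in capitals.
Calr, chr8:84847075-84847093, plus strand: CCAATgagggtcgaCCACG
Hsp90b1, chr10:86705638-86705656, minus strand: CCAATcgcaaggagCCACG
Hsp90b1, chr10:86705533-86705551, plus strand: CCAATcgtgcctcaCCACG
Canx, chr11:50325800-50325818, minus strand: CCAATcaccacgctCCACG
Pdia6, chr12:17266491-17266509, plus strand: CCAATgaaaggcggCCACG
Dnajc3, chr14:118937827-118937845, plus strand: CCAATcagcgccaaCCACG
Creld2, chr15:88819520-88819538, minus strand: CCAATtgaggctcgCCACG
Derl3, chr10:75893242-75893260, minus strand: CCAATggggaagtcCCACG
Ero1b, chr13:12565682-12565700, minus strand: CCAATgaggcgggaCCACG
The boxes are fixed by the search, and the 9 bases between them differ in every site printed. Of these sites the nearest to the start is that of Syvn1, ending 26 bases before it. A match is a description of letters, and binding was not measured.

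**Figure D1:**
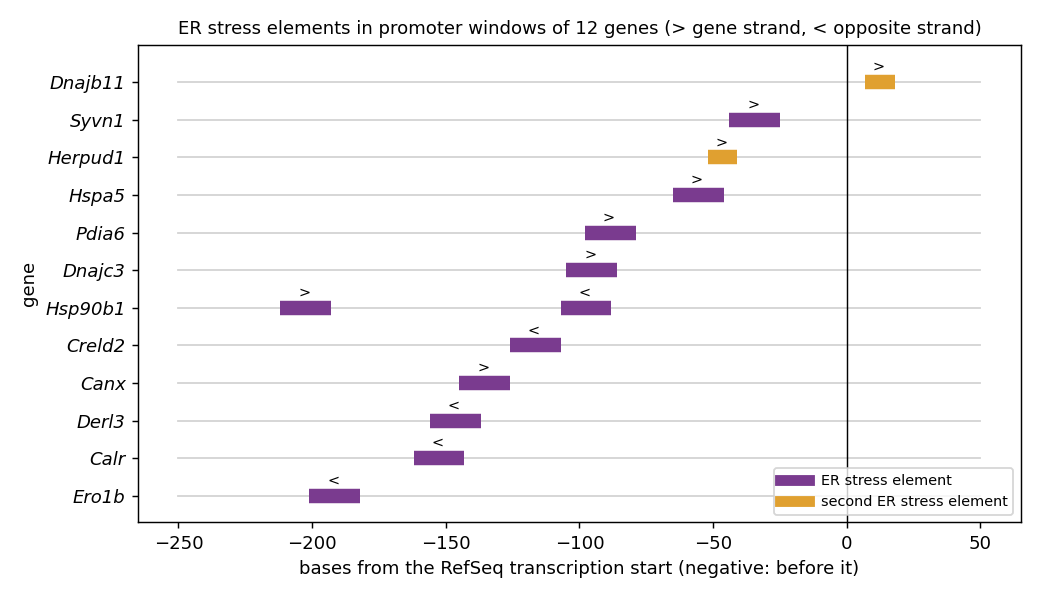
Positions of the ER stress element (purple) and the second element (orange) in the promoter windows of the 12 genes that hold one, in bases from the RefSeq start; arrowheads give the strand. 11 of the genes hold a site before the start, and Hsp90b1 holds 2 sites of the first element.

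The libraries held 30884067 to 40050267 reads, and each of the 35 genes had between 254 and 45837 reads in a library. The library labelled Riclin replicate 3 stood apart. A list of 25 pancreatic acinar enzyme genes took 0.0620% of its reads (95% Wilson interval 0.0613 to 0.0628%, counting error only), with Gp2 and Spink1 among those listed at 0. It took 11.9 and 11.2% in Riclin replicates 2 and 4, and 4.31, 17.6 and 16.4% in saline replicates 1, 2 and 4. Pancreas is rich in ER, and its part in the values below was not tested. In every library stomach markers were high, the summed FPKM of 5 chief cell genes, Pga5, Pgc, Cblif, Lipf and Chia1, lying at 68500 to 93342 in Riclin and 36507 to 69951 in saline, although Lipf was listed at 0 in 5 libraries. In a whole-tissue library, fewer cells of a type and less RNA per cell cannot be told apart.

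No gene of the group passed the test. By limma on log2(FPKM + 1), with Benjamini-Hochberg adjustment over all 11738 genes tested, 0 of the 35 passed an adjusted p of 0.05, as did 0% of all genes, and the smallest adjusted p of the group was 0.691, for Herpud1. Limma's voom on the reads recovered from the FPKM values also called 0 of the 35. The lean of the group was small and mostly upward. The log2 fold change, Riclin minus saline, was positive in 30 of 35 (85.7%), against 61.3% of all genes tested, with a median of 0.096 against 0.040 over all genes. With median-of-ratios scaling 25 were positive and 10 negative, with a median of 0.050 against -8.5e-04 over all genes. The positive share was then 71.4%, against 49.8% of all genes. With upper-quartile scaling the split was 26 to 9 (74.3%, against 52.9% of all genes) and the median 0.062, against 0.0092. With acinar genes removed and the libraries rescaled the split was 22 to 13 (62.9%, against 41.9% of all genes). The median was then 0.018, against -0.029 over all genes. Without saline replicate 1 and Riclin replicate 3, the 2 libraries lowest in acinar reads, the median was 0.055 and the split 22 to 13, a positive share of 62.9%, near the median of 0.041 and the 59.8% positive over all genes.

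Every Riclin library lay above every saline library in 7 of the 35 genes (20.0%), against 8.14% of all genes tested. These were Herpud1, Syvn1, Hyou1, Eif2ak3, Sdf2l1, Ern1 and Dnajb11. Every Riclin library lay below every saline library in 0 of the 35, against 3.02% of all. An unadjusted limma p under 0.05 with a higher Riclin level was found for 4 of the 35 (11.4%), against 4.07% of all genes, and with a lower level for 0, against 1.83%. The count of 4 was 1 with the replicate number as a block and 2 without the pair of libraries lowest in acinar reads. Differences were modest in size: the ratio of mean FPKM ran from 0.806 for Ero1b to 1.46 for Herpud1. Together the genes took 0.764 ± 0.0445% of reads in Riclin and 0.709 ± 0.0341% in saline (SD, n = 3 each). By library that share was 0.736, 0.815 and 0.741% in Riclin replicates 2, 3 and 4, and 0.692, 0.687 and 0.748% in saline replicates 1, 2 and 4, each with a Wilson half-width of at most 0.00304 percentage points. The groups overlapped in this share. It is a share of all reads, acinar reads included, and those ran from 0.0620% in Riclin replicate 3 to 17.6% in saline replicate 2. Their part in the difference was not tested.

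**Figure D2:**
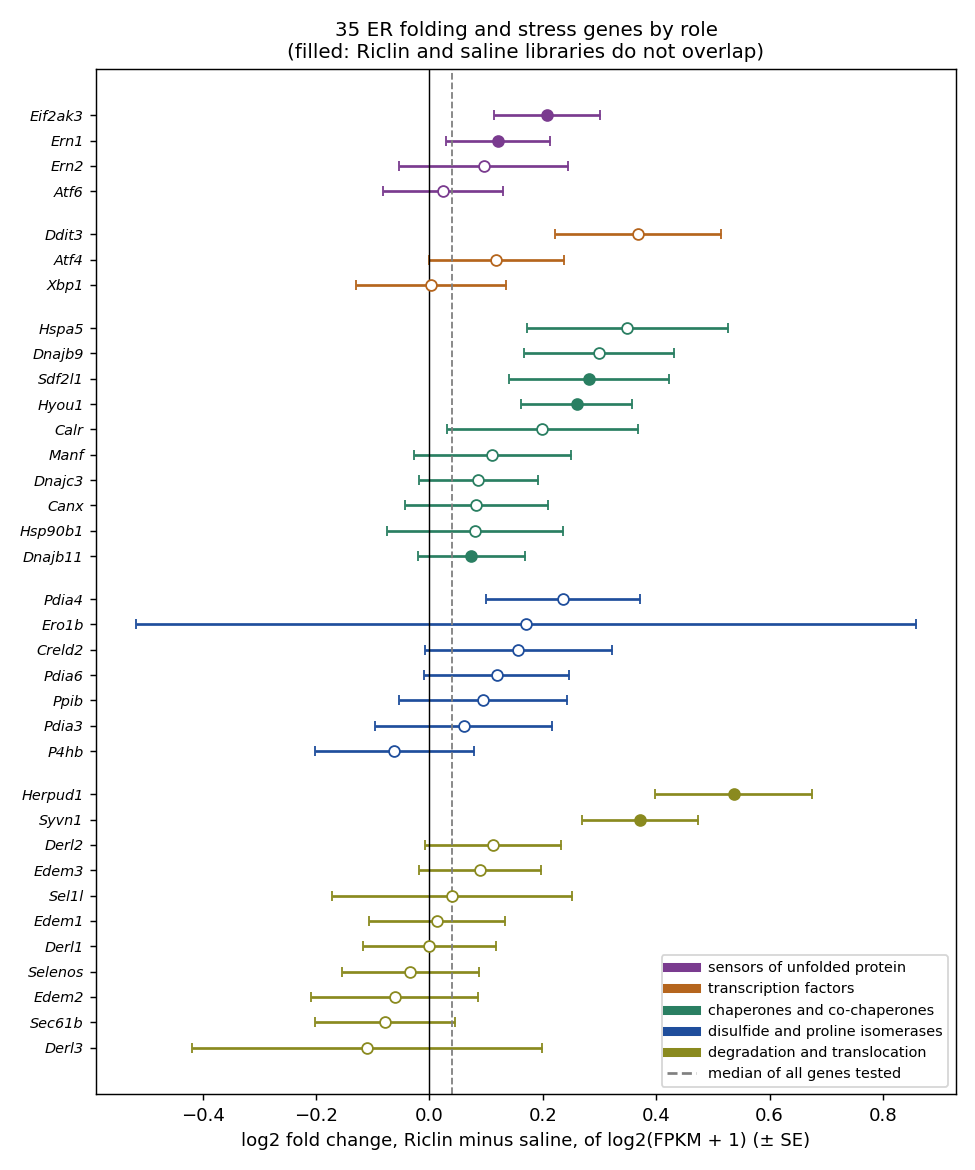
Log2 fold change, Riclin minus saline, on the log2(FPKM + 1) scale with its limma SE for the 35 genes, grouped by role; filled points mark genes whose libraries do not overlap, and the dashed line is the median of all genes tested (0.040). Points lie mostly right of 0, with Herpud1 farthest at 0.54, and Ero1b has the widest error.

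The sensors differed in level more than between treatments. Ern1 makes IRE1 alpha, the kinase and RNase that splices Xbp1 mRNA and is present in most cells. It measured 5.40, 5.86 and 5.52 FPKM in Riclin replicates 2, 3 and 4, and 4.77, 5.38 and 5.06 FPKM in saline replicates 1, 2 and 4. The lowest Riclin library lay just above the highest saline one, and the log2 fold change was 0.12 (SE 0.092, limma unadjusted p = 0.228). It was 0.051 with acinar genes removed and 0.055 without saline replicate 1 and Riclin replicate 3. Ern2 makes IRE1 beta, the relative found in mucus-secreting epithelium of the gut and airways. It measured 23.2, 27.0 and 24.5 FPKM in Riclin, and 28.9, 20.1 and 21.4 FPKM in saline, the groups overlapping, with saline replicate 1 highest of all. The level of Ern2 per length was 4.45 ± 0.156 times that of Ern1 in Riclin and 4.68 ± 1.22 times in saline (SD, n = 3 each).

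Eif2ak3 makes PERK, the kinase that slows translation by acting on eIF2 alpha. It measured 14.2, 14.0 and 12.9 FPKM in Riclin, against 12.02, 11.1 and 12.1 FPKM in saline. The groups did not overlap, with a ratio of means of 1.17 and a log2 fold change of 0.21 (SE 0.093, limma unadjusted p = 0.0588, adjusted p = 0.820), or 0.13 with acinar genes removed. Atf6, the sensor that is cut in the Golgi to free a transcription factor, measured 7.998, 6.70 and 6.76 FPKM in Riclin, against 6.93, 6.57 and 7.52 FPKM in saline. There was overlap, and the sign of its log2 fold change of 0.024 (SE 0.105) differed between scalings.

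Of the transcription factors, Xbp1 was the most abundant. It measured 148, 149 and 157 FPKM in Riclin, against 144, 172 and 140 FPKM in saline, groups that overlapped fully, at a log2 fold change of 0.0027 (SE 0.132) whose sign varied with scaling. The table holds 1 value per gene, so the spliced form of Xbp1 mRNA was not measured. Atf4, the factor whose translation rises when PERK is active, measured 88.2, 104 and 89.9 FPKM in Riclin, against 84.1, 91.0 and 84.3 FPKM in saline (log2 fold change 0.12, SE 0.119, and 0.043 without Riclin replicate 3). Only Riclin replicate 3 lay above all saline libraries. Ddit3, which makes CHOP, the factor tied to cell death under long stress, had the lowest mean level of the 35. It measured 3.84, 5.98 and 5.02 FPKM in Riclin, against 3.94, 3.53 and 3.24 FPKM in saline. Riclin replicate 2 lay within the saline range, and the log2 fold change was 0.37 (SE 0.147, limma unadjusted p = 0.0379, adjusted p = 0.806). It was 0.24 without Riclin replicate 3.

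**Figure D3:**
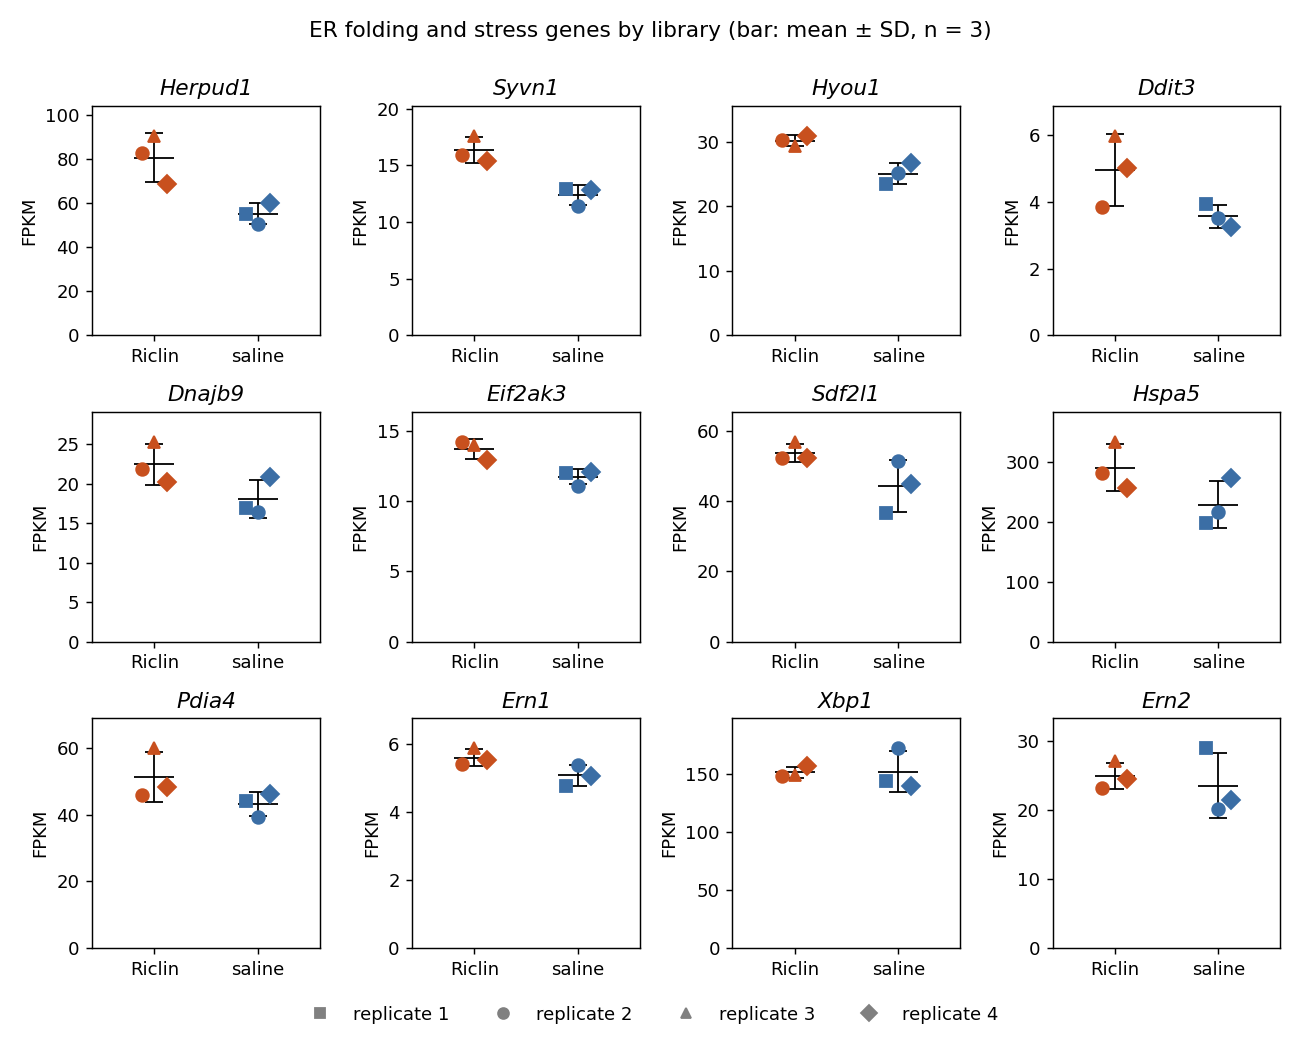
FPKM in each library for the 10 genes with the smallest p and for Xbp1 and Ern2; Riclin is left (orange) and saline right (blue), marker shapes give the replicate number, and bars give the mean and SD of 3 libraries. Herpud1, Syvn1, Hyou1, Eif2ak3, Sdf2l1 and Ern1 show no overlap, and the others do.

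All 10 chaperone and co-chaperone genes had a positive log2 fold change, from 0.074 to 0.35, against 61.3% of all genes tested. Their median was 0.15, against 0.040 over all genes. One of the 10, Hsp90b1, was negative in 4 of the 16 alternative settings. Hspa5, the gene of BiP, which binds unfolded chains and holds the sensors inactive, measured 282, 333 and 256 FPKM in Riclin, against 198, 216 and 272 FPKM in saline. Saline replicate 4 lay above Riclin replicate 4, so the groups overlapped. The ratio of means was 1.27 and the log2 fold change 0.35 (SE 0.177, limma unadjusted p = 0.0862, adjusted p = 0.829), and it was 0.15 without the 2 libraries lowest in acinar reads.

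Hyou1, a large ER relative of the HSP70 family that helps BiP exchange nucleotide, measured 30.3, 29.4 and 30.9 FPKM in Riclin, against 23.4, 25.2 and 26.6 FPKM in saline. The Riclin libraries were close together and all above saline, with a log2 fold change of 0.26 (SE 0.098, limma unadjusted p = 0.0306, adjusted p = 0.791). The log2 fold change of Hyou1 was 0.18 with acinar genes removed (limma unadjusted p = 0.184). It was 0.23 without saline replicate 1 and Riclin replicate 3. Sdf2l1, a partner of BiP and its J-proteins, measured 52.1, 56.7 and 52.1 FPKM in Riclin, against 36.7, 51.5 and 44.7 FPKM in saline. The groups did not overlap, but saline replicate 2 came within 1 FPKM of the lowest Riclin library (log2 fold change 0.28, SE 0.141, and 0.16 without saline replicate 1). Dnajb9, a J-protein that restrains IRE1 and aids degradation, measured 21.9, 25.3 and 20.2 FPKM in Riclin, against 16.9, 16.5 and 20.9 FPKM in saline. Its groups overlapped through saline replicate 4 (log2 fold change 0.30, SE 0.132, limma unadjusted p = 0.0555). Without saline replicate 1 and Riclin replicate 3 the log2 fold change was 0.17 for Dnajb9 and 0.12 for Sdf2l1.

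The lectin chaperones, which hold glycoproteins while they fold, overlapped between groups. Calr, for calreticulin, had the highest mean FPKM of the 35, at 384, 507 and 442 FPKM in Riclin against 417, 347 and 393 FPKM in saline (log2 fold change 0.20, SE 0.169, and 0.10 without Riclin replicate 3). Canx, its membrane-bound relative, had a log2 fold change of 0.083 (SE 0.126). Hsp90b1, the ER member of the HSP90 family, measured 217, 275 and 204 FPKM in Riclin, against 224, 206 and 222 FPKM in saline. Its log2 fold change of 0.080 (SE 0.155) was -0.048 without Riclin replicate 3. Dnajb11, a J-protein that brings clients to BiP, varied least of the 35 across libraries and did not overlap, at 32.8, 35.7 and 33.8 FPKM in Riclin against 32.1, 32.6 and 32.3 FPKM in saline. Dnajc3, a J-protein that also inhibits PERK, and Manf, a secreted stress-induced factor, had log2 fold changes of 0.087 and 0.11, with overlapping groups.

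Of the 7 genes for disulfide bonds and proline isomerisation, 6 had a positive log2 fold change (85.7%, against 61.3% of all genes tested). None of the 7 was without overlap. Pdia4, a protein disulfide isomerase, measured 45.9, 59.9 and 48.2 FPKM in Riclin, against 44.2, 39.3 and 46.3 FPKM in saline. Riclin replicate 2 lay just below saline replicate 4, and the log2 fold change of 0.24 (SE 0.136) was 0.12 without Riclin replicate 3. P4hb, the classic protein disulfide isomerase, measured 385, 399 and 411 FPKM in Riclin, against 412, 399 and 437 FPKM in saline (log2 fold change -0.062, SE 0.140, and -0.025 without saline replicate 4). Ppib, for cyclophilin B, a proline isomerase of collagen and other secreted proteins, measured 409, 394 and 465 FPKM in Riclin, against 408, 399 and 378 FPKM in saline (log2 fold change 0.095, SE 0.147, and 0.024 without Riclin replicate 4). Pdia3, the partner of the lectin chaperones, and Pdia6, a further disulfide isomerase, had log2 fold changes of 0.061 and 0.12, and Creld2, a stress-induced ER protein with isomerase activity, one of 0.16.

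Ero1b, the oxidase that recharges protein disulfide isomerase and is known for its high level in pancreas, varied most. It measured 11.4, 7.83 and 6.63 FPKM in Riclin, against 1.48, 9.87 and 20.7 FPKM in saline. Saline held both the lowest and the highest library. The ratio of means was 0.806 while the log2 fold change was 0.17 (SE 0.688), so the direction differed between the linear and the log scale.

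The 11 genes of ER-associated degradation, the route by which misfolded proteins are drawn back to the cytosol, and of translocation had a median log2 fold change of 0.013, with 7 positive and 4 negative. The positive share was 63.6%, against 61.3% of all genes tested. The smallest p-values of the 35 were those of Herpud1 and Syvn1 among them. Herpud1, a membrane scaffold of the HRD1 ligase complex and a strongly stress-induced gene, measured 82.5, 90.4 and 68.6 FPKM in Riclin, against 54.8, 50.3 and 59.8 FPKM in saline. Every Riclin library was above every saline one, with means of 80.5 ± 11.03 FPKM in Riclin and 55.0 ± 4.75 FPKM in saline (SD, n = 3 each). The ratio of means was 1.46 and the log2 fold change 0.54 (SE 0.139, limma unadjusted p = 0.00517, adjusted p = 0.691). Over 16 alternative settings it lay between 0.45 and 0.65.

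Syvn1 makes HRD1 itself, the ubiquitin ligase at the centre of that complex. It measured 15.9, 17.6 and 15.4 FPKM in Riclin, against 12.9, 11.4 and 12.9 FPKM in saline. The groups were again separate, with a ratio of means of 1.32 and a log2 fold change of 0.37 (SE 0.102, limma unadjusted p = 0.00697, adjusted p = 0.699), between 0.30 and 0.41 over the 16 settings. The other 9 degradation and translocation genes overlapped between groups. They make channel components (Derl1, Derl2, Derl3), factors that act on the mannose of glycoproteins (Edem1, Edem2, Edem3), a selenoprotein of the same route (Selenos), a HRD1 partner (Sel1l) and a subunit of the translocon through which new proteins enter (Sec61b). Their log2 fold changes were 0.11 for Derl2, 0.089 for Edem3, 0.040 for Sel1l, 0.013 for Edem1, 2.2e-04 for Derl1, -0.033 for Selenos, -0.061 for Edem2, -0.078 for Sec61b and -0.11 for Derl3. Sel1l makes the direct partner of HRD1, and its libraries overlapped between groups.

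Derl3, Sel1l and Edem2 were lowest in the 2 libraries with least acinar RNA, an ordering seen in 3 of the 35 genes (8.57%) and in 2.33% of all genes tested. Derl3, a channel component for misfolded proteins, measured 11.005, 6.39 and 11.2 FPKM in Riclin replicates 2, 3 and 4, against 5.97, 13.0 and 13.0 FPKM in saline replicates 1, 2 and 4. Riclin replicate 3 and saline replicate 1 stood near 6 FPKM and the other 4 libraries above 11 FPKM. Sel1l measured 43.5, 24.8 and 36.9 FPKM in Riclin, against 27.8, 35.3 and 37.4 FPKM in saline. Edem2, a factor that trims mannose from glycoproteins bound for degradation, measured 45.1, 35.004 and 43.7 FPKM in Riclin, against 37.0, 43.9 and 48.4 FPKM in saline. The opposite order, highest in those same 2 libraries, held for Hsp90b1, Pdia3 and Ern2, and for 24.3% of all genes tested. The part of acinar RNA in these values was not tested.

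**Figure D4:**
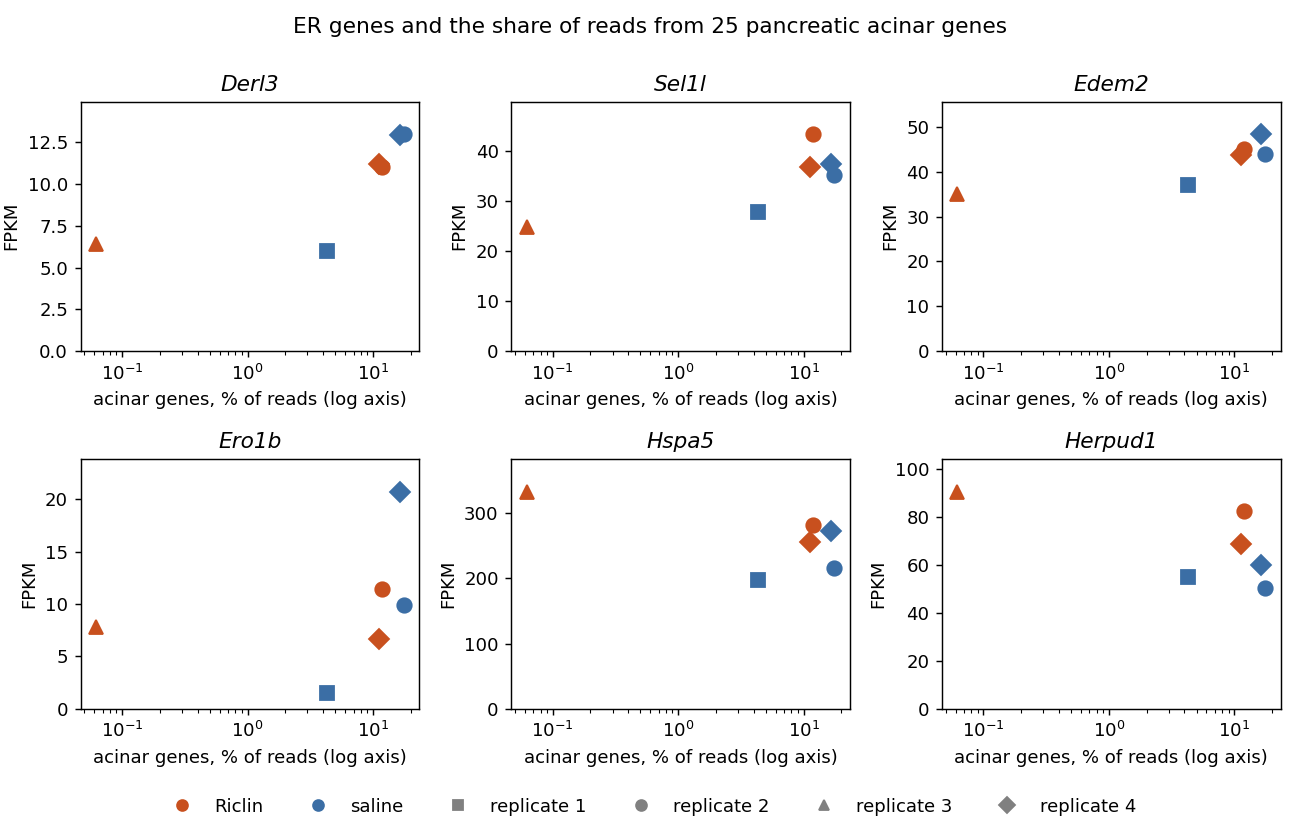
FPKM of 6 ER genes (vertical) against the percent of reads from 25 pancreatic acinar genes in the same library (horizontal, log axis); Riclin is orange, saline blue, and shapes give the replicate number. Derl3, Sel1l and Edem2 are lowest in Riclin replicate 3 (0.0620%) and saline replicate 1 (4.31%), while Hspa5 and Herpud1 are highest in Riclin replicate 3.

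Riclin replicate 3 was the highest of the 6 libraries in 18 of the 35 genes (51.4%), against 35.6% of all genes tested, and saline replicate 1 the lowest in 14 (40.0%), against 7.54% of all. Riclin replicate 3 was also the highest for a list of 20 cytosolic heat shock genes, which summed to 1425, 2017 and 1431 FPKM in Riclin replicates 2, 3 and 4, and to 1335, 1319 and 1446 FPKM in saline replicates 1, 2 and 4. In that list 18 of 20 genes (90.0%) had a positive log2 fold change, against 61.3% of all genes tested. The median of the list was 0.22, against 0.040 over all genes. It was 0.092 without Riclin replicate 3, and 0.094 without saline replicate 1 and Riclin replicate 3 together. Summed over 9 mitochondrial transcripts, a sign that can follow RNA quality, the level was 18249 to 18943 FPKM in Riclin and 15366 to 16877 FPKM in saline, with no overlap. Plasma cells, another type rich in ER, were followed by 5 genes that summed to 68.9 to 72.2 FPKM in Riclin and 68.2 to 83.5 FPKM in saline, most of it Sdc1, which epithelium also makes. Of these, 3 passed the filter, 1 with a positive log2 fold change (0.11) and 2 with negative ones, down to -1.18. Jchain, the joining chain of secreted antibodies, singled out after its values were seen, measured 7.46, 3.99 and 7.17 FPKM in Riclin, against 12.3, 21.0 and 12.7 FPKM in saline, without overlap. The 6 surface mucous cell genes all had negative log2 fold changes and summed to 58129 to 82916 FPKM in Riclin and 61587 to 105016 FPKM in saline. The 5 mucous neck and antral gland genes, also all negative, summed to 2262 to 6532 FPKM in Riclin and 6129 to 14365 FPKM in saline, and the 8 parietal cell genes, all positive, to 4299 to 5764 FPKM in Riclin and 3213 to 4726 FPKM in saline. The 9 forestomach squamous genes summed to 383, 397 and 301 FPKM in Riclin replicates 2, 3 and 4, and to 77.1, 333 and 236 FPKM in saline replicates 1, 2 and 4. Their 6 tested genes were all positive, with a median log2 fold change of 0.87, and saline replicate 1 was the lowest library. The 5 smooth muscle genes, all negative, summed to 1033 to 1129 FPKM in Riclin and 1051 to 1392 FPKM in saline. No gene of these 6 cell type lists was at 0. The 4 tested chief cell genes were all positive, with a median log2 fold change of 0.60. Chia1 and Cblif were without overlap, while Pga5 and Pgc overlapped between groups. The part of these in the values above was not tested. Without Riclin replicate 3 the median log2 fold change of the 35 genes was 0.088, against 0.0035 over all genes, and without saline replicate 1 it was 0.084 against 0.079.

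**Figure D5:**
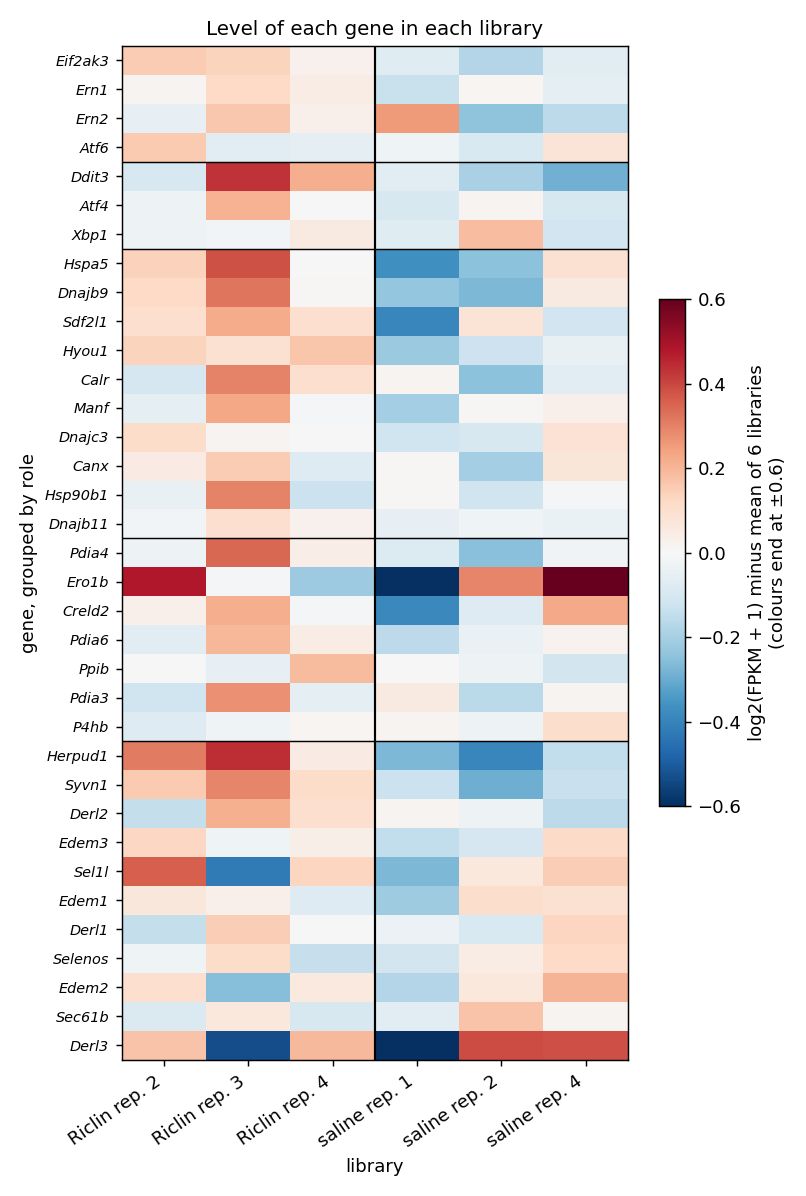
Each gene's log2(FPKM + 1) in each library minus its mean over the 6 libraries (colour, ending at 0.6 either way), with Riclin in the left columns and genes grouped by role. Riclin replicate 3 is the highest library for 18 of 35 genes and saline replicate 1 the lowest for 14, and Derl3, Sel1l and Edem2 are low in both.

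Beyond the 35 genes, 4 further lists of the same pathway were tested, and 0 of their genes passed the adjusted threshold by limma in either direction. On the higher side the unadjusted limma p was under 0.05 for 1 of 23 effectors and regulators (4.35%), Creb3l2. The same held for 1 of 17 translocation and signal peptide genes (5.88%), Srprb. It held for 0 of 27 folding and glycan enzymes and 0 of 18 other degradation genes, against 4.07% of all genes tested. On the lower side only Sec11c, 1 of the 17, had such a p, against 1.83% of all genes. Of 23 tested effectors and regulators of the stress response, 18 had a positive log2 fold change (78.3%, median 0.060). Over all genes tested the positive share was 61.3% and the median 0.040. Creb3l2, a membrane-bound factor related to ATF6, measured 7.90, 7.25 and 7.39 FPKM in Riclin, against 6.85, 4.25 and 5.25 FPKM in saline, without overlap (log2 fold change 0.42, SE 0.149). Wfs1, an ER membrane protein, followed at 0.22. The stress factor Atf3 went the other way, at 11.6, 14.8 and 15.8 FPKM in Riclin against 16.7, 16.1 and 18.1 FPKM in saline, as did the secreted glycoprotein Stc2 at -0.32, both without overlap. In all, every Riclin library lay above every saline library in 1 of the 23 (4.35%), against 8.14% of all genes tested. Every Riclin library lay below in 2 (8.70%), against 3.02% of all.

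Among 17 genes of translocation and signal peptide removal 6 had a positive log2 fold change and 11 a negative one (median -0.027). Srprb, a subunit of the receptor that docks ribosomes at the ER, measured 13.9, 13.8 and 13.2 FPKM in Riclin, against 11.1, 10.97 and 11.5 FPKM in saline. Sec11c, a subunit of signal peptidase, lay below, at 56.2, 48.7 and 50.7 FPKM in Riclin against 61.2, 60.1 and 72.5 FPKM in saline. Both were without overlap. In this list every Riclin library lay above every saline library in 2 of the 17 (11.8%), against 8.14% of all genes tested. Every Riclin library lay below in 1 (5.88%), against 3.02% of all. Sec62 and Spcs1 had log2 fold changes of 0.11 and -0.20.

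Among 27 tested folding and glycan enzymes 16 had a positive log2 fold change (median 0.012), led by the membrane disulfide isomerase Tmx1 at 0.21 and the glucosidase subunit Ganab at 0.18. On the lower side were the reductase Dnajc10 at -0.43 and Agr2 at -0.33. Agr2, a disulfide isomerase that mucus-making cells use to fold mucins, measured 454, 654 and 538 FPKM in Riclin, against 646, 643 and 770 FPKM in saline, with Riclin replicate 3 inside the saline range. Among 18 other degradation genes 14 had a positive log2 fold change (median 0.053), with Ube2g2 at 0.16 and Nploc4 at 0.14 on the higher side and Ube2j2 at -0.091 and Ngly1 at -0.055 on the lower.

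Grouped by promoter, the 12 genes with either stress element had a median log2 fold change of 0.14, with 11 of 12 positive. The 18 with a window and neither element had 0.092, with 14 of 18 positive. The other 13 tested genes whose windows hold an element had -0.023, with 6 of 13 positive. All genes tested had 0.040, with 61.3% positive. The difference between these sets was not tested. Every Riclin library lay above every saline library in 3 of the 12, Herpud1, Syvn1 and Dnajb11. The same held for 3 of the 18, 1 of the 13 and 8.14% of all genes tested.

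The genes whose log2 level most resembled that of Hspa5 over the 6 libraries, of 11738, were Fbxo11 (Pearson r 0.998), Gbp6 (0.996), Ccdc127 (0.989), Ptpn14 (0.985) and Ttc9c (0.981). Among the 35, Dnajb9 was closest at 0.98, and Xbp1 had the lowest r, at -0.27. With 6 libraries these are descriptions.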

How the data were processed

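RNA of mouse stomach was sequenced in 6 libraries, 3 per group by the treatment label. The authors deposited FPKM values for 23550 symbols. Per the labels' protocols, RNA was extracted with TRIzol. The submitters' processing notes name mm10 and Bowtie2 without saying which step used them. Neither the counting tool nor the annotation or strand setting is given in the sources used here.

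The 11738 genes reaching 1 FPKM in 3 or more libraries were tested on log2(FPKM + 1), which understates changes of low genes. The fit was limma 3.58.1 (R 4.3.3) with an intensity trend, two-sided, with no covariate, and it was tested on simulated data. SE is limma's moderated standard error. Whole reads behind the FPKM values, recovered from ratios between libraries for 23548 of the 23550 genes (relative tolerance 1e-09), gave depth, shares of reads and an alternative fit. Genes given in full are the 10 with the smallest p, the sensors and factors, and the 5 with the highest mean. Of each further list the 2 with the smallest p on each side are named. The members, lists, rule and alternatives were chosen with earlier results of these data known. Of the folding, degradation, acinar and plasma cell lists, 29 of 30, 18 of 19, 25 of 26 and 5 of 7 genes were used. Alternatives were another pseudocount, filter, scaling or variance prior, the replicate block, voom on recovered reads, removal of acinar genes, and libraries left out. Promoters are RefSeq's on GRCm38.p6, the assembly mm10 names, matched by symbol. Figures were drawn with matplotlib 3.10.9.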

Additional observations from a re-analysis of the deposited data

How the results depend on the processing

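Over 16 alternatives, 0 of the 35 genes passed the adjusted threshold in any, and the lowest adjusted p among the 18 genes given in full was 0.430. The count of all genes called was 2 with a robust variance prior, and 0 to 1 with each library left out in turn, the 1 without saline replicate 2. The median log2 fold change of the 35 was positive in every alternative, from 0.018 to 0.14, and 22 to 32 genes were positive. With each library left out it was 0.084 to 0.14. Over all genes tested the median ran from -0.029 to 0.079 and the positive share from 41.9 to 69.2%. With the replicate block 62.9% of the 35 were positive, against 59.8% of all genes, with medians of 0.055 and 0.041. Without saline replicate 1 the shares were 71.4 and 69.2%, with medians of 0.084 and 0.079. Among the 18 named genes, 4 changed sign. Xbp1 was -0.045 with median-of-ratios scaling, -0.033 with upper-quartile scaling, -0.079 with acinar genes removed, and between -0.054 and 0.096 with single libraries left out (negative at -0.034, -0.054 and -0.023 without saline replicate 1, saline replicate 4 and Riclin replicate 4). Atf6 was -0.018, -0.0071 and -0.048 in the first 3 of these, -0.016 without saline replicate 2 and -0.049 without Riclin replicate 2, within -0.049 to 0.069 over single libraries left out. Hsp90b1 was -0.0012 with acinar genes removed and -0.048 without Riclin replicate 3 (up to 0.17 with others left out), and Ern2 -0.0016 without saline replicate 2 (up to 0.25). With the replicate block Xbp1 was -0.024 and Hsp90b1 -0.025, the same as without saline replicate 1 and Riclin replicate 3 (-0.024 and -0.025), since the groups share only the numbers 2 and 4. The cause of these changes was not tested. The numbers are not stated to pair animals, and deviations from the group means correlated at 0.22 for number 2 and 0.011 for number 4. The block left 0 genes called, a median of 0.055 and 1 of the 35 genes with an unadjusted p under 0.05, against 4 without it. With 3 libraries a group, small differences such as those here are not resolved.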
